A study of Mus musculus with 78 samples.

Results

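The expression of 7 genes that encode subunits of the GABA-A receptor was followed through 7 brain regions of mice: the alpha subunits Gabra2, Gabra3, Gabra4 and Gabra5, the beta subunits Gabrb1 and Gabrb2, and the delta subunit Gabrd. They were taken by name, and all 7 were found among the 55367 gene symbols shared by both deposited count tables. Bulk poly(A) RNA-seq was available for 78 libraries from 12 single-housed adult C57BL6/J mice, 3 of each sex and genotype, giving 40 libraries from knockout (KO) and 38 from wild-type (WT) mice. The KO mice carried a constitutive CRISPR deletion from exon 3 to exon 7 of Acss2, which encodes an enzyme that turns acetate into acetyl-CoA, and the line had been backcrossed for 3 generations. Every mouse, WT included, had drunk 15% ethanol in limited-access sessions (drinking in the dark) after 1 week of habituation, with sessions of 2 h on days 1 to 3 and 4 h on day 4 and ethanol alone in the second week, so no group was free of ethanol. Both striatal regions (ventral and dorsal) and both hippocampal regions (dorsal and ventral) had 12 libraries each, the amygdala and the cortex 11, and the prefrontal cortex 8, of which 1 came from a male KO mouse. Libraries of different regions came from the same mice.

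The GABA-A receptor is a pentameric chloride channel that opens when GABA, the main inhibitory transmitter of the adult brain, binds between an alpha and a beta subunit. The alpha subunit sets much of the receptor's pharmacology and location, and a gamma subunit usually completes the receptor at synapses. The delta subunit takes the place of gamma in receptors outside synapses, often beside alpha4, and these receptors, like many that hold alpha5, carry a steady (tonic) inhibition that is sensitive to neurosteroids.

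Library depth split by region. The 47 libraries of the striatal regions, amygdala and dorsal hippocampus held 4454420 to 14487778 assigned reads, and the 31 libraries of the ventral hippocampus, cortex and prefrontal cortex held 629635 to 1228828, so depth and these regions cannot be told apart. The lowest count of any of the 7 subunits was 78 in the deeper libraries and 12 in the shallower ones, and none was undetected. Levels are given as CPM, the gene's count scaled by the library's total to 1 common total for all libraries. As a check of genotype, Acss2 was lower in KO libraries by a log2 difference of -2.69 to -3.27 across the 7 regions, past the threshold in each. In 8 libraries the summed level of 9 markers of striatal projection neurons (Drd1, Drd2 and Adora2a among them) went against the region label, taking 2000 CPM as the divide, a choice made after seeing the data. The sum was 447 CPM in the dorsal striatum library of male KO mouse 10 and 266 CPM in that of female WT mouse 23. In the ventral striatum it was 1085 CPM in male KO mouse 10, 1752 CPM in female WT mouse 11 and 477 CPM in male WT mouse 13, while the other 19 striatal libraries held 3493 to 9420 CPM. Conversely it reached 2134 CPM in the prefrontal cortex of female KO mouse 5, and 2302 CPM in the amygdala and 4180 CPM in the ventral hippocampus of female KO mouse 6. Values without these 8 libraries are given beside the results that they moved. In addition, the prefrontal cortex library labelled female WT mouse 23 carried the sex-linked transcripts of a male, and the dorsal hippocampus library of mouse 23 held 223 CPM of dentate granule cell markers, against 407 to 1534 CPM in the other 11. In bulk tissue, fewer cells that express a subunit and less RNA per cell cannot be told apart.

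A trio of the genes lies on mouse chromosome 5 (GRCm38, GENCODE M21): Gabra2 at chr5:70957597-71095849 and Gabra4 at chr5:71569749-71658308 on the minus strand, and Gabrb1 at chr5:71658113-72149037 on the plus strand. Gabra4 and Gabrb1 start head to head, and the annotated genes overlap by 196 bases, or by 388 bases in the RefSeq annotation. Reads from that overlap cannot be assigned to one gene without strand, and the strand setting of the counting is not given in the sources used here. Gabra3 lies on the X chromosome at chrX:72432681-72656848 (minus strand), Gabra5 at chr7:57407672-57510059 (minus), Gabrb2 at chr11:42419757-42629028 (plus) and Gabrd at chr4:155384980-155398112 (minus). All are protein-coding, with 2875 (Gabrd) to 13838 (Gabrb1) exonic bases. RefSeq promoter sequence (GRCm38.p6) was matched for 6 of the 7, relative to RefSeq's start, which for Gabrb2 lies inside the GENCODE gene. The sequences before 4 of the start sites are shown because they belong to the subunit that differed most between regions (Gabra5), to the one that differed least (Gabrb2), and to the chromosome 5 neighbours Gabra2 and Gabra4. They run 5′ to 3′ on the gene's own strand, end at the base before the start for Gabra2, Gabra5 and Gabrb2, and for Gabra4 leave out the part that lies in an exon of Gabrb1. Capitals mark any match, on either strand, to the TATA box motif TATAAA, to the GC box motif GGGCGG, to the cAMP response element TGACGTCA or to the EGR motif GCGNGGGCG, where N is any base.
Gabra2, chr5:71095850-71096099: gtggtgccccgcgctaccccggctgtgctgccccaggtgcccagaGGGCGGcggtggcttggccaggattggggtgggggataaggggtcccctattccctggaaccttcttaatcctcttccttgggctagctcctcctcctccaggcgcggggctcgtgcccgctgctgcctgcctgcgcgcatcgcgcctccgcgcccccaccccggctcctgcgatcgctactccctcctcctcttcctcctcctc
Gabra4, chr5:71658364-71658558: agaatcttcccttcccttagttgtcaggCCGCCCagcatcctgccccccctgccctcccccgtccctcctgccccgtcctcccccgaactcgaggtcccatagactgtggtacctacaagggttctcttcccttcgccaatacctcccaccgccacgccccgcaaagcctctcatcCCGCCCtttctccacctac
Gabra5, chr7:57510060-57510309: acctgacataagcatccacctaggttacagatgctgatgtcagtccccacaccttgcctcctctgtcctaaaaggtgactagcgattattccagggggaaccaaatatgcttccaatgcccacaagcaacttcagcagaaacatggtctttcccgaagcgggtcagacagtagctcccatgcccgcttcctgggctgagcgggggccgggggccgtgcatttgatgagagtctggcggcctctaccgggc
Gabrb2, chr11:42420190-42420439: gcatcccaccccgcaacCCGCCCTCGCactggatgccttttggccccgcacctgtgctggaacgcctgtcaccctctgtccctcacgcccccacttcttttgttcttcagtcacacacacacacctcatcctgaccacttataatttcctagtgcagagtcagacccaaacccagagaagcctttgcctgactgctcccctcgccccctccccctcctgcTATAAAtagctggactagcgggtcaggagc
The Gabra5 sequence held none of the 4 motifs and was 56.4% G or C. The Gabrb2 sequence held 1 TATAAA, 1 GGGCGG and 1 GCGNGGGCG, the last of which overlaps the GC box, and was 58.8% G or C. Gabra2 held 1 GC box in a sequence of 70.0% G or C, and Gabra4 held 2 in 63.6%. Among all 32851 promoters of the table, cut to the same 250 bases, 12.4% held TATAAA, 32.7% GGGCGG, 1.5% TGACGTCA and 4.7% GCGNGGGCG, and for the 195 bases of Gabra4 the share with GGGCGG was 23.8%. These are matches of letters, not measured binding.

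Of the alpha subunits, Gabra5 differed most between regions and peaked in the hippocampus. In the dorsal hippocampus it ranged from 108 to 305 CPM (median 228, n = 12), and in the ventral hippocampus from 95.5 to 342 CPM (median 173, n = 12). In the dorsal striatum it ranged from 18.3 to 71.5 CPM (median 35.9, n = 12), in the ventral striatum from 40.2 to 67.2 CPM (median 49.6, n = 12), and in the cortex from 44.7 to 63.7 CPM (median 49.5, n = 11). All hippocampal libraries were therefore above all libraries of the striatum and cortex, while the amygdala (60.7 to 160 CPM, n = 11) and the prefrontal cortex (54.5 to 120 CPM, n = 8) lay between and overlapped both. The mean of the highest region was 5.64 times that of the lowest. Each region was tested against the mean of the other 6 with edgeR's quasi-likelihood test, adjusted over 19555 genes by Benjamini-Hochberg (threshold 0.05). Gabra5 was higher in the dorsal hippocampus by a log2 difference of 1.73 ± 0.11 (SE, adjusted p = 7.6e-22) and in the ventral hippocampus by 1.29 ± 0.13 (2.2e-13). It was lower in the dorsal striatum (-1.25, adjusted p = 1.2e-11), the ventral striatum (-0.83, 6.1e-07) and the cortex (-0.82, 3.4e-05).

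**Figure D1:**
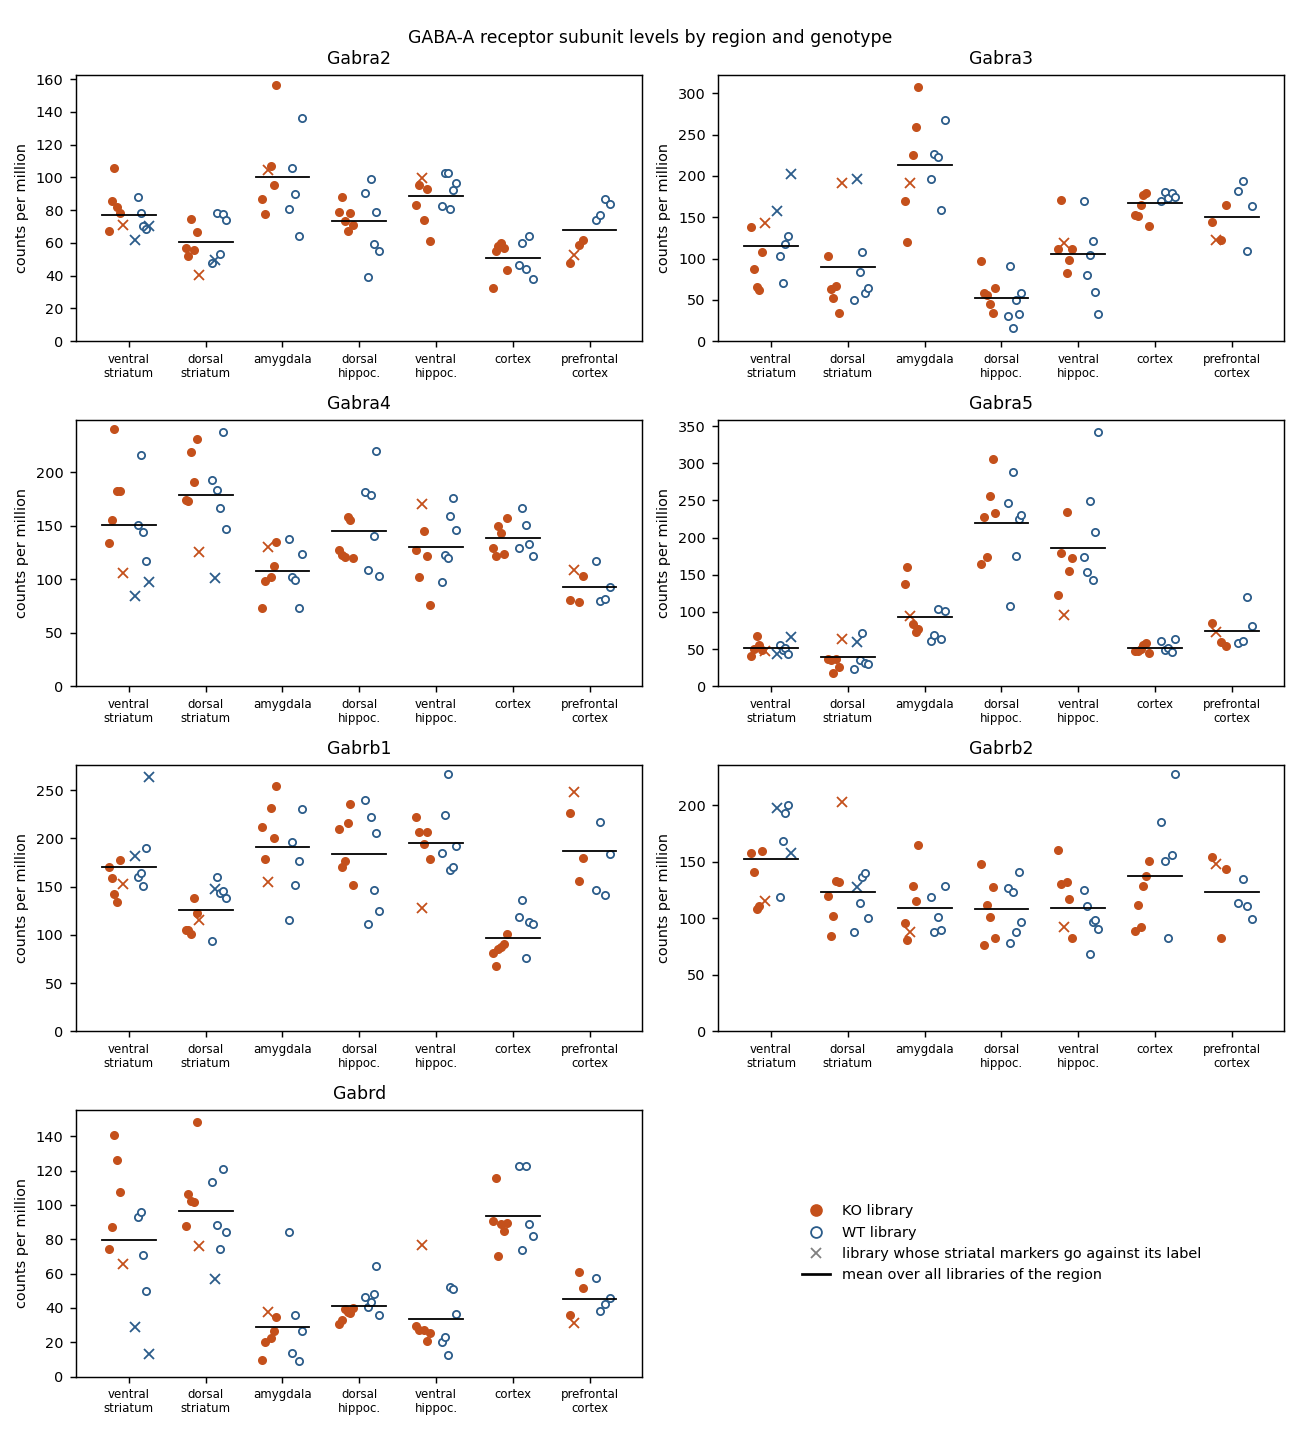
Level of each subunit in every library, by region (y axis: CPM, one panel per gene; points: single libraries, coloured by genotype). Gabra5 stands highest in both hippocampal regions, Gabra3 in the amygdala and Gabrd in the dorsal striatum and cortex, and neighbouring regions overlap.

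Gabra3, whose subunit is known from monoaminergic neurons, was highest in the amygdala and lowest in the dorsal hippocampus. The amygdala held 120 to 308 CPM (median 223, n = 11) and the dorsal hippocampus 15.8 to 97.3 CPM (median 53.1, n = 12), and these ranges did not overlap. The cortex was narrow, at 140 to 181 CPM (median 174, n = 11), and the dorsal striatum wide, at 34.5 to 196 CPM (median 65.6, n = 12). Against the other regions Gabra3 was higher in the amygdala by 1.05 ± 0.16 (adjusted p = 1.4e-07) and in the cortex by 0.60 ± 0.18 (0.0046). It was lower in the dorsal hippocampus by a log2 difference of -1.26 ± 0.18 (2.8e-08) and in the dorsal striatum by -0.42 ± 0.17 (0.034). In the dorsal striatum the 2 libraries with few striatal markers held the highest levels, 192 and 196 CPM, against 34.5 to 107 CPM in the other 10. Without the 8 libraries named above the dorsal striatal difference was -0.79, and Gabra3 also passed the threshold in the prefrontal cortex (0.48, adjusted p = 0.048).

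Gabra4, the usual alpha partner of delta, was highest in the dorsal striatum, at 101 to 238 CPM (median 179, n = 12), and lowest in the prefrontal cortex, at 78.9 to 117 CPM (median 87.2, n = 8). The difference against the other regions was 0.55 ± 0.10 in the dorsal striatum (adjusted p = 7.6e-06), -0.69 ± 0.15 in the prefrontal cortex (0.00020) and -0.31 ± 0.11 in the amygdala (0.033). In the ventral striatum (84.8 to 241 CPM) it was 0.21 ± 0.11 and did not pass (adjusted p = 0.097), whereas without the 8 libraries it was 0.41 (adjusted p = 0.00059). Gabra2, whose subunit is found at synapses on the axon initial segment, was highest in the amygdala, at 63.9 to 157 CPM (median 95.3), and lowest in the cortex, at 32.5 to 63.9 CPM (median 55.3). Its difference was 0.59 ± 0.09 in the amygdala (adjusted p = 5.7e-07) and -0.62 ± 0.12 in the cortex (2.5e-05). The smaller differences of Gabra2 in the ventral hippocampus (0.29, adjusted p = 0.031) and dorsal striatum (-0.26, 0.022) did not pass without the 8 libraries (adjusted p = 0.068 and 0.091).

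Of the beta subunits, Gabrb1 differed between regions about as much as Gabra2 and Gabra4, and Gabrb2 less. Gabrb1 ranged from 67.4 to 136 CPM in the cortex (median 90.7, n = 11), below most other libraries, and from 128 to 266 CPM in the ventral hippocampus (median 193, n = 12). Against the other regions it was lower in the cortex by a log2 difference of -0.86 ± 0.11 (adjusted p = 1.5e-09) and in the dorsal striatum by -0.37 ± 0.09 (0.00082). It was higher in the dorsal hippocampus, amygdala and ventral hippocampus by 0.34, 0.33 and 0.28 (adjusted p = 0.0017, 0.0033 and 0.024). Gabrb2 varied least of the 7, with region means within 1.41 times of each other. Its level was 108 to 200 CPM in the ventral striatum (median 158, n = 12) and 76.1 to 148 CPM in the dorsal hippocampus (median 106, n = 12), with overlapping ranges. The ventral striatum gave its 1 difference past the threshold (0.36 ± 0.10, adjusted p = 0.0036). By genotype the ventral striatal mean of Gabrb2 was 173 CPM in WT and 132 CPM in KO. Its region means lay within 1.76 times of each other in WT and within 1.22 times in KO, where the prefrontal cortex also held 132 CPM.

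Gabrd was high in the dorsal striatum, ventral striatum and cortex and low in the amygdala and ventral hippocampus. It ranged from 56.7 to 148 CPM in the dorsal striatum (median 95.0, n = 12), from 70.4 to 123 CPM in the cortex (median 88.8, n = 11) and from 12.9 to 141 CPM in the ventral striatum (median 80.9, n = 12). The amygdala held 9.29 to 84.4 CPM (median 26.5, n = 11) and the ventral hippocampus 12.5 to 76.8 CPM (median 27, n = 12). Its difference from the other regions was 1.03 ± 0.17 in the dorsal striatum (adjusted p = 4.5e-07), 0.92 ± 0.20 in the cortex (0.00015) and 0.63 ± 0.18 in the ventral striatum (0.0022). It was -0.99 ± 0.20 in the amygdala (8.5e-05) and -0.86 ± 0.24 in the ventral hippocampus (0.0042). Without the 8 libraries the ventral striatal difference was 0.94, and Gabrd also passed in the dorsal hippocampus (-0.42, adjusted p = 0.028). Its region means spanned a ratio of 3.31, against 4.05 for Gabra3, 2.01 for Gabrb1, 1.98 for Gabra2 and 1.93 for Gabra4. Without the 8 libraries these ratios were 3.63 for Gabrd, 4.09 for Gabra3, 2.07 for Gabrb1, 1.97 for Gabra2 and 2.12 for Gabra4, and those of Gabra5 and Gabrb2 were 6.38 and 1.39. For every one of the 7, regions that were neighbours in the order of means overlapped in range. The difference of neighbouring means exceeded the larger SD of the pair in 4 cases: ventral hippocampus to amygdala and prefrontal cortex to cortex for Gabra5, and ventral to dorsal striatum and dorsal striatum to cortex for Gabrb1.

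Counted by region, 6 of the 7 subunits passed in the dorsal striatum, where 46.5% of all genes passed: 2 were higher (26.5% of genes) and 4 lower (20% of genes). In the amygdala 5 passed (30.9% of genes), 3 higher (21.4%) and 2 lower (9.51%). In the cortex 5 passed (38.4% of genes), 2 higher (17.7%) and 3 lower (20.8%). The ventral hippocampus had 4 (23.4% of genes), of which 3 were higher (11.8%) and 1 lower (11.6%). The ventral striatum had 3 (43.6% of genes), of which 2 were higher (23.4%) and 1 lower (20.3%). The dorsal hippocampus had 3 as well (35.8% of genes), of which 2 were higher (22.7%) and 1 lower (13.1%). The prefrontal cortex had 0 higher (11.8%) and 1 lower (12%), where 23.7% of genes passed. That is 27 of 49 tests, 14 higher and 13 lower, a share to be read against those of all genes. In WT libraries alone the highest or lowest regions of Gabra2 (amygdala, 0.43, adjusted p = 0.059), Gabra4 (prefrontal cortex, -0.66, 0.056) and Gabrd (amygdala, -0.76, 0.16) did not pass, nor did Gabrb1 in the dorsal hippocampus (0.19, 0.41).

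**Figure D2:**
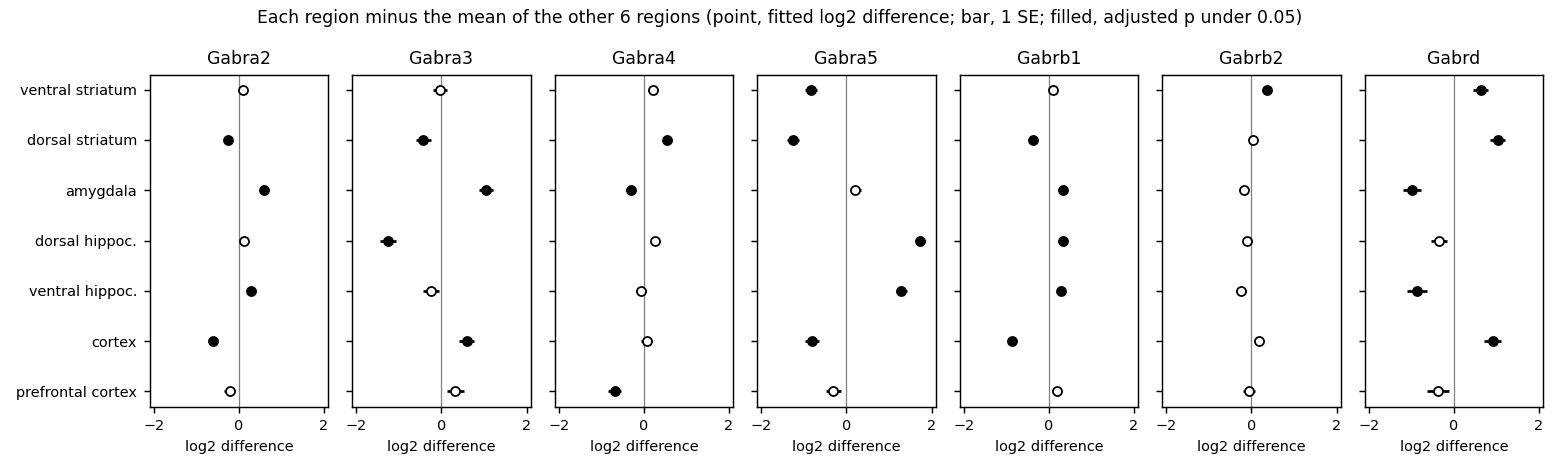
Fitted log2 difference of each subunit in each region from the mean of the other 6 (points; bars, 1 SE; filled where the adjusted p was under 0.05). Gabra5 in the dorsal hippocampus lies farthest to the right, at 1.73, and Gabra3 in the same region farthest to the left, at -1.26.

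Related regions were compared directly. Ventral and dorsal striatum differed in Gabrb1, which was higher in the ventral part (log2 difference 0.40 ± 0.12, adjusted p = 0.019). That is 1 of 7 against 10.6% of all genes (5.1% higher, 5.48% lower). Ventral and dorsal hippocampus differed in Gabra3, higher in the ventral part (0.87 ± 0.23, 0.0031), 1 of 7 against 19.8% of genes (6.73% higher, 13% lower). Its ventral hippocampal levels were 32.8 to 171 CPM (median 108), overlapping those of the dorsal hippocampus. The ventral libraries held 629635 to 1206013 reads and the dorsal ones 4454420 to 8607138. Depth and part of the hippocampus therefore cannot be told apart in this pair, unlike in the striatal and cortical pairs. Prefrontal cortex and cortex differed in 3 of 7, against 23.6% of genes (12.4% higher, 11.2% lower). Gabrb1 was higher in the prefrontal cortex by 0.90 ± 0.15 (2.0e-06), and Gabra4 and Gabrd were lower, with differences of -0.65 ± 0.18 (0.0040) and -1.11 ± 0.31 (0.0055). For Gabrb1 the prefrontal cortex (142 to 248 CPM, n = 8) lay wholly above the cortex (67.4 to 136 CPM, n = 11), and for Gabrd (31.1 to 61.0 CPM) wholly below it. In WT libraries alone, 38 of the 78, none of the 5 differences passed, with log2 differences of 0.39, 0.96, 0.55, -0.67 and -1.18 in the order given (adjusted p = 0.34, 0.093, 0.14, 0.13 and 0.15). The striatal difference of Gabrb1 also missed the threshold without mouse 4 (adjusted p = 0.051) or mouse 13 (0.058).

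Levels of different genes were compared per kilobase of exonic sequence. On this scale Gabra5 was the most abundant of the 7 in both hippocampal regions, at 73.8 (dorsal) and 62.5 (ventral) CPM per kb. Gabra3 reached 54.4 CPM per kb in the amygdala, Gabrd 33.6 in the dorsal striatum and 32.6 in the cortex, and Gabra4 29.4 in the dorsal striatum. The shares that follow describe the 4 listed alphas, and the 2 listed betas, among themselves.

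The leading listed alpha subunit changed with region. Gabra4 made up 49.3% ± 12.3 (SD, n = 12) of the 4 alphas' counts in the dorsal striatum and led in 10 of 12 libraries, the exceptions being the 2 with few striatal markers, where Gabra3 led. In the ventral striatum Gabra4 made up 37.9% ± 9.72 (n = 12) and led in 7 of 12, with Gabra3 ahead in the other 5. Gabra5 made up 44.2% ± 6.62 (n = 12) in the dorsal hippocampus, where it led in 11 of 12 libraries, and 35.9% ± 9.30 (n = 12) in the ventral hippocampus, where it led in 9 of 12. Gabra3 made up 41.2% ± 6.05 (n = 11) in the amygdala, 41% ± 2.14 (n = 11) in the cortex and 39% ± 5.91 (n = 8) in the prefrontal cortex. The lowest share of Gabra3 was that of the dorsal hippocampus, 11.5% ± 6.69 (n = 12). Counted per kilobase the shares shifted towards the genes with short exonic sequence: Gabra5 made up 60.3% ± 7.49 (dorsal) and 49.98% ± 10.7 (ventral) in the hippocampal regions, and in the ventral striatum Gabra3 (35.9%) came ahead of Gabra4 (30.5%). Without the 8 libraries Gabra4 made up 53.6% ± 7.51 of the 4 alphas' counts in the dorsal striatum (n = 10) and 42.1% ± 6.86 in the ventral striatum (n = 9), and Gabra5 37.4% ± 8.16 in the ventral hippocampus (n = 11). The shares of Gabra3 were then 41.6% in the amygdala (n = 10) and 39.6% in the prefrontal cortex (n = 7).

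**Figure D3:**
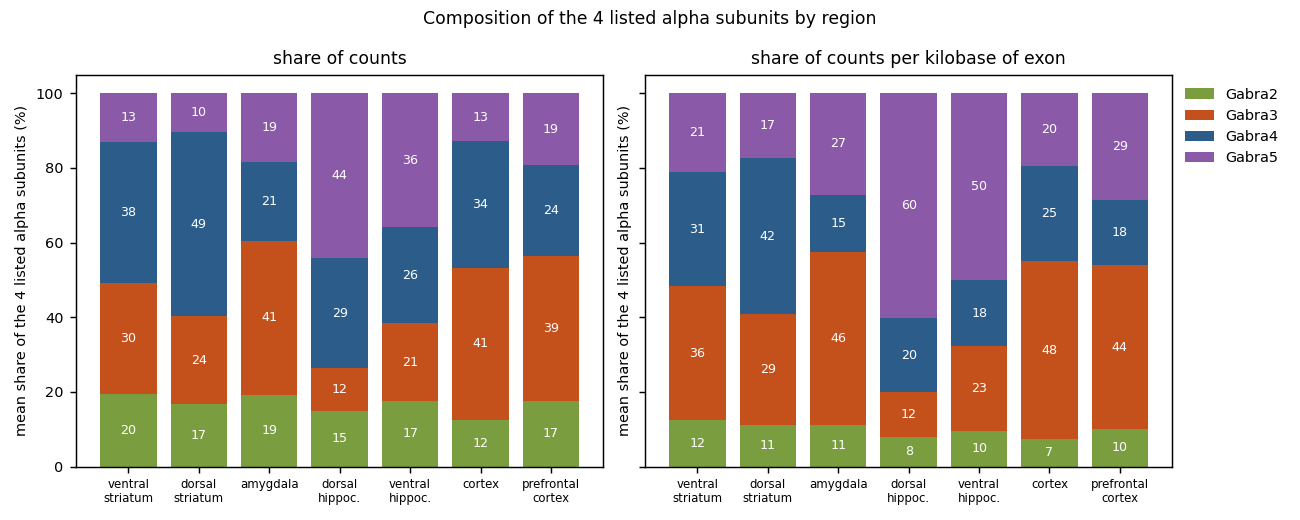
Mean share of each of the 4 listed alpha subunits by region (y axis: percent of their sum), by counts on the left and by counts per kilobase of exon on the right. Gabra5 takes 44% of counts in the dorsal hippocampus and Gabra4 49% in the dorsal striatum, and per kilobase Gabra5 takes 60% and 50% in the hippocampal regions.

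Within the listed beta pair, Gabrb1 made up 64.2% ± 6.05 (n = 12) of counts in the ventral hippocampus, 63.5% ± 5.64 (n = 11) in the amygdala, 62.8% ± 4.00 (n = 12) in the dorsal hippocampus and 60.3% ± 3.95 (n = 8) in the prefrontal cortex. In the ventral striatum it made up 53.0% ± 5.09 and in the dorsal striatum 50.9% ± 5.87 (n = 12 each). In the cortex it made up 42.1% ± 5.10 (n = 11), and Gabrb2 led in all 11 libraries. Without the 8 libraries the share of Gabrb1 was 52.1% in each striatal region, 64.7% in the ventral hippocampus, 63.5% in the amygdala and 59.9% in the prefrontal cortex. The cortical range, 32.8% to 48.1%, lay below the whole range of the prefrontal cortex, 55.7% to 65.4%. Per kilobase, Gabrb1, whose annotated exons together hold 13838 bases, made up 25.2% to 45.5% across region means. Gabrb2 was the larger of the pair in every region mean on that scale. This length joins the exons of all annotated transcripts of a gene, and which transcripts were present was not measured.

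In the 5 striatal libraries with few striatal markers, Gabra3 and Gabra4 lay outside the range of the other libraries of the region in all 5, Gabrd in 3, Gabra2 in 2, Gabrb1 and Gabrb2 in 1 each and Gabra5 in 0. No test was made of this. These libraries were picked by their tissue markers, and the share of all genes outside the range in them is not given here. The counts therefore cannot be read as a trait of the subunits. In the ventral striatum the 3 libraries with the lowest sums (mice 13, 10 and 11) held Gabra4 at 97.8, 106 and 84.8 CPM, below the 117 to 241 CPM of the other 9. Gabrd stood at 12.9 CPM in mouse 13 and 29.1 CPM in mouse 11, below the 49.9 to 141 CPM of the other 9 libraries. Gabra3 was higher in these 3, at 202, 143 and 157 CPM, against 61.4 to 138 CPM. In the dorsal striatum the libraries of mice 10 and 23 held Gabra4 at 126 and 101 CPM, against 147 to 238 CPM in the other 10. These 2 libraries also held 2531 and 2526 CPM of excitatory cortical neuron markers, against 156 to 1219 CPM in the other 10, and the part of these cells in the subunits' levels was not tested. The ventral hippocampus library of mouse 6 went the other way, with Gabrd at 76.8 CPM against 12.5 to 52.4 CPM in the other 11 and Gabra5 at 95.5 CPM against 123 to 342 CPM. Of the 8 libraries, 5 lay outside the range of the remaining libraries of their region for each of Gabra3, Gabra4 and Gabrd, 3 for Gabrb1, 2 for Gabra2 and 1 each for Gabra5 and Gabrb2. For these counts too the share of all genes is not given.

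**Figure D4:**
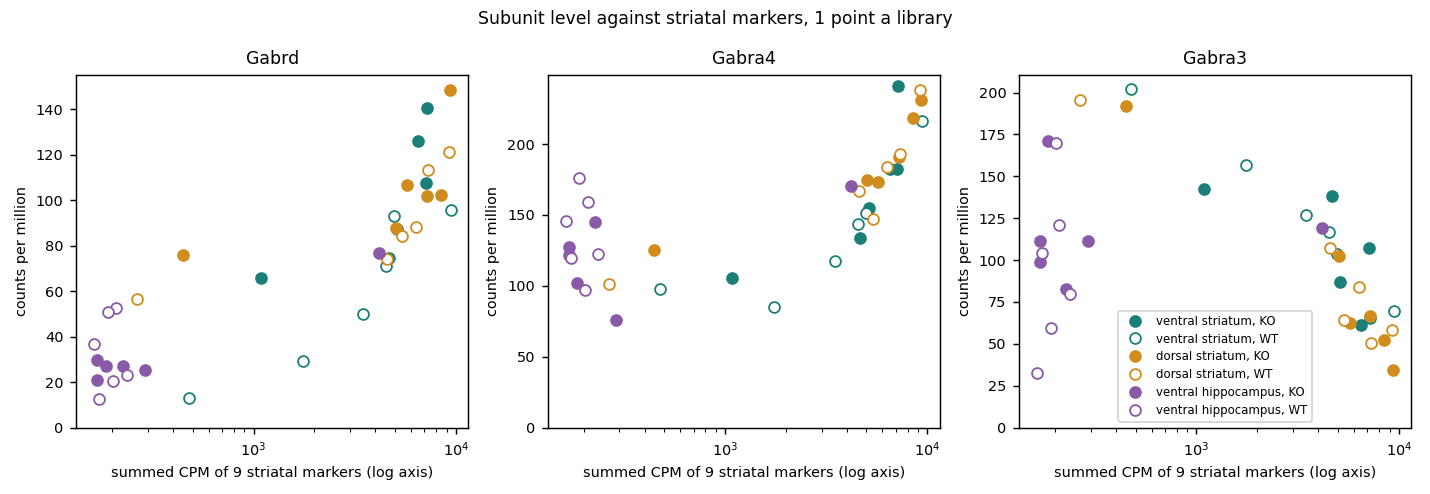
Levels of Gabra3, Gabra4 and Gabrd (y axes, CPM) in the 24 striatal and 12 ventral hippocampus libraries, against the summed level of 9 striatal markers (x axis, CPM). Among the striatal libraries Gabra4 runs from 84.8 to 241 CPM. Of the 5 striatal libraries below 2000 CPM of markers, 4 lie under all other striatal libraries for Gabra4. For Gabra3 all 5 lie above the other striatal libraries, at 143 CPM or more.

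Deletion of Acss2 was examined in each region with a model of sex and genotype. Of the 7 subunits, 0 passed in any region (edgeR's quasi-likelihood test, Benjamini-Hochberg), and DESeq2's Wald test also called 0. In all regions but the prefrontal cortex 1 gene passed, Acss2. It made up 0.00708% (ventral) and 0.00689% (dorsal) of the genes tested in the striatal regions, 0.00657% in the amygdala, 0.0069% (dorsal) and 0.00929% (ventral) in the hippocampal regions and 0.00947% in the cortex. In the prefrontal cortex 11 genes passed (0.0925%). At an unadjusted p under 0.05, edgeR marked 2 subunits in the cortex (6.46% of genes there) and 1 each in the prefrontal cortex (8.63%), ventral striatum (7.29%) and dorsal hippocampus (2.84%), and 0 in the amygdala (3.52%), dorsal striatum (1.54%) and ventral hippocampus (5.01%). The 49 fitted KO minus WT differences ran from -0.49 to 0.81 on the log2 scale, 22 above and 27 below 0, with SEs of 0.10 to 0.53 (median 0.19) and a smallest adjusted p of 0.25. With 1 library a mouse in each region, these p-values set each difference against a spread that mixes mouse, dissection and library.

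Gabra2 in the prefrontal cortex was the 1 case of 49 in which KO and WT did not overlap. The share of all genes without overlap in these libraries is not given here, so the count has no background. In this region 8.63% of genes had an unadjusted p under 0.05 (edgeR). The 4 KO libraries held 47.5, 52.4, 58.6 and 61.5 CPM and the 4 WT libraries 74.3, 77.1, 83.6 and 86.8 CPM, a log2 difference of -0.49 ± 0.15 (edgeR, unadjusted p = 0.0046, adjusted p = 0.25). Markers of other cells differed between the same libraries: the 9 striatal markers summed to 712 to 2134 CPM in KO and 234 to 396 CPM in WT, and 11 oligodendrocyte markers (Mbp and Mog among them) to 2671 to 11970 CPM in KO and 1819 to 3461 CPM in WT. Of the striatal markers 5 of 9 passed as higher in KO (edgeR), where 0.0925% of all genes passed in either direction. All 11 oligodendrocyte markers had an unadjusted p under 0.05 (edgeR), against 8.63% of genes. The part of both sets of markers in the Gabra2 difference was not tested. Without the library of mouse 5 the difference was -0.50 (edgeR, unadjusted p = 0.0078, adjusted p = 0.41), and without the WT library of mouse 23 it was -0.48 (unadjusted p = 0.014, adjusted p = 0.32).

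The largest fitted difference was that of Gabrd in the ventral striatum, 0.81 ± 0.40 (unadjusted p = 0.063). KO libraries held 65.7 to 141 CPM (median 97.3, n = 6) and WT libraries 12.9 to 95.7 CPM (median 60.5, n = 6). The groups overlapped, and the 2 lowest WT values were those of mice 13 and 11, whose striatal markers were low. Without the libraries whose markers went against the label the difference was 0.46. Gabrb2 in the same region held 108 to 159 CPM in KO (median 128) and 119 to 200 CPM in WT (median 181), a difference of -0.38 (unadjusted p = 0.024, adjusted p = 0.65). Gabrd in the dorsal hippocampus held 30.7 to 39.8 CPM in KO and 36 to 64.3 CPM in WT (n = 6 each), a difference of -0.35 (unadjusted p = 0.014, adjusted p = 1.0). In the cortex both beta subunits lay lower in KO without passing. There Gabrb1 held 67.4 to 100 CPM in KO (n = 6) and 76.4 to 136 CPM in WT (n = 5), a difference of -0.38 (unadjusted p = 0.010, adjusted p = 0.75). Gabrb2 held 88.7 to 151 CPM in KO and 82.7 to 228 CPM in WT, a difference of -0.44 (unadjusted p = 0.018, adjusted p = 0.75).

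In the remaining 3 regions the subunit with the smallest p did not pass either, and KO and WT overlapped. In the dorsal striatum it was Gabrb1, at 101 to 139 CPM in KO (median 110, n = 6) and 93.3 to 160 CPM in WT (median 144, n = 6), a log2 difference of -0.26 (edgeR, unadjusted p = 0.050, adjusted p = 1.0). Gabrb1 was also first in the amygdala, at 154 to 254 CPM in KO (median 206, n = 6) and 116 to 231 CPM in WT (median 176, n = 5), a difference of 0.27 (edgeR, unadjusted p = 0.11, adjusted p = 0.99). Neither of these 2 fitted values, of opposite sign, differed from 0 in the adjusted test. In the ventral hippocampus it was Gabra5, at 95.5 to 235 CPM in KO (median 164, n = 6) and 143 to 342 CPM in WT (median 191, n = 6), a difference of -0.43 ± 0.21 (edgeR, unadjusted p = 0.054, adjusted p = 0.97). The lowest KO value was that of mouse 6, and without that library the difference was -0.35 (edgeR, unadjusted p = 0.11, adjusted p = 0.95). Across the 7 regions the differences ran from -0.35 to 0.35 for Gabra3, from -0.22 to 0.31 for Gabra4 and from -0.43 to 0.34 for Gabra5, and 0 of these 21 had an unadjusted p under 0.05.

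**Figure D5:**
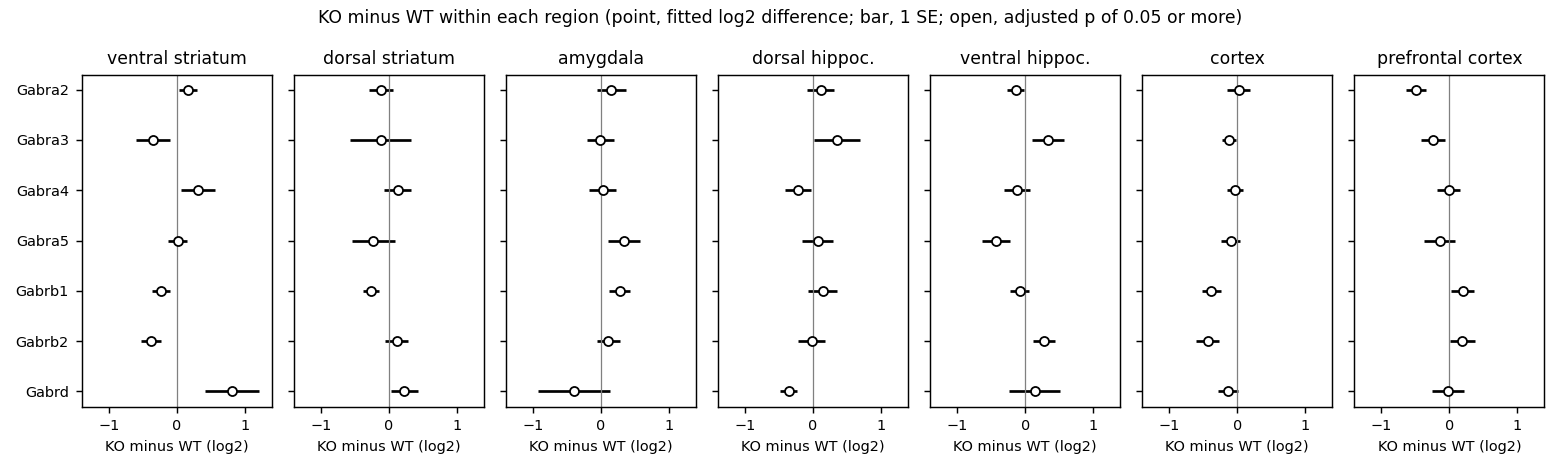
Fitted KO minus WT difference of each subunit in each region (x axis, log2; point, estimate; bar, 1 SE). All 49 points are open, which marks an adjusted p of 0.05 or more, and they lie between -0.49 and 0.81.

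Averaged over the 7 regions, with the mouse as a random block (limma voom, Benjamini-Hochberg), 0 of the 7 subunits differed between KO and WT and 0 had an unadjusted p under 0.05, where 0.0307% of 19555 genes passed. Gabrd gave 0.18 ± 0.15 (limma, unadjusted p = 0.24, adjusted p = 0.92), and 0.02 without the 8 libraries. The other 6 lay between -0.04 and 0.04, with SEs of 0.07 to 0.13. Subunit composition was compared too. Over 42 shares (4 alphas and 2 betas in 7 regions) KO and WT means differed by -7.83 to 6.55 percentage points, and the ranges overlapped in all 42.

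Each sex has its own deposited table, so sex and table cannot be told apart. In a comparison of females with males adjusted for genotype, 0 of 7 subunits passed in any region in edgeR's quasi-likelihood test, or in DESeq2's Wald test. The share of all genes called was 0.104% in the cortex, 0.042% in the prefrontal cortex, 0.0394% in the amygdala, 0.0425% (ventral) and 0.0482% (dorsal) in the striatal regions, and 0.0414% (dorsal) and 0.0464% (ventral) in the hippocampal regions. At an unadjusted p under 0.05 there were 3 of 49: Gabrb2 in the dorsal striatum (-0.40, where 7.97% of genes had such a p) and in the amygdala (-0.38, 18.1% of genes), with lower values in females, and the X-linked Gabra3 in the ventral hippocampus (0.63, unadjusted p = 0.017, 4.23% of genes), with higher values in females. The fitted differences of Gabra3 elsewhere had no common sign, at -0.43 in the amygdala, -0.25 in the ventral striatum, -0.06 in the cortex, 0.06 in the dorsal striatum, 0.11 in the prefrontal cortex and 0.23 in the dorsal hippocampus. Leaving out mouse 23 gave -0.33 in the dorsal striatum and -0.08 in the dorsal hippocampus, and leaving out mouse 3 gave -0.10 in the prefrontal cortex.

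Whether the KO difference itself depended on sex was tested as an interaction. In edgeR's quasi-likelihood test 0 of 7 passed in any region (0% of genes in each), and DESeq2's Wald test called 0 too. An unadjusted p under 0.05 was found for 2 subunits each in the amygdala (4.42% of genes), ventral hippocampus (6.63%) and prefrontal cortex (4.39%) and for 1 in the cortex (5.41%). The smallest p was that of Gabrd in the ventral hippocampus. In females the KO libraries held 29.5, 27.2 and 76.8 CPM and the WT libraries 20.3, 23.2 and 12.5 CPM. In males the KO libraries held 26.9, 20.7 and 25.2 CPM and the WT libraries 52.4, 51.0 and 36.7 CPM. KO was above WT in every female library and below it in every male library. These levels come from the shallower libraries, where the lowest count of a subunit was 12. Of the male WT libraries, that of mouse 3 also held 18 counts of Gabra6, against 0 or 1 in the other libraries of the region. The part of that library in this pattern was not tested. The difference between the sexes' differences was 2.27 ± 0.54 (unadjusted p = 0.00068, adjusted p = 0.72). The highest value belongs to mouse 6, whose library held 4180 CPM of striatal markers, and without it the interaction was 1.56 (unadjusted p = 0.00082, adjusted p = 0.24).

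The genes most like each subunit in level were sought over all 78 libraries, by Pearson's r of log2(CPM + 1) among 10237 genes with a mean of at least 10 CPM. Libraries share mice, regions and depth, so these values describe this set. For Gabra5 they were Sh3bp5 (0.91), Ehd3 (0.91) and Ksr1 (0.90), for Gabra3 Dpp10 (0.87), Pcsk1 (0.86) and Ppp2r2b (0.84), and for Gabrd Kctd1 (0.87), Gsg1l (0.85) and Rhobtb2 (0.83). Gabrb1 was nearest to Chl1 (0.86), Nexmif (0.84) and Map1b (0.84), and Gabra4 to Rgs7bp (0.81), Ppp3ca (0.79) and Ano3 (0.78). Gabra2 (Acvr2a, 0.76) and Gabrb2 (Faxc, 0.69) had the weakest nearest genes of the 7. Among the subunits themselves, after subtracting each region's mean, Gabra4 and Gabrd varied together (r = 0.69 over 78 libraries), as did Gabrb1 and Gabrb2 (0.52) and Gabra2 and Gabra4 (0.49). Gabra3 and Gabra4 varied in opposite directions (-0.56), as did Gabrb1 and Gabrd (-0.51). Over the 70 libraries left without the 8, these r were 0.63, 0.55, 0.46, -0.44 and -0.37 in the order given.

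Other genes of the pathway were read as lists. Of 10 genes for GABA synthesis, uptake, vesicle loading and chloride transport, 9 were higher (23.4% of all genes) and 1 lower (20.3%) in the ventral striatum, with a median log2 difference of 0.62 against 0.00 for all genes. They included Gad2 (1.64), which makes GABA, and Abat (1.16), which breaks it down. In the cortex 7 of the 10 were lower (20.8% of genes) and 0 higher (17.7%), with a median of -0.47 against -0.07 for all genes. In each hippocampal region 5 were lower (13.1% of genes dorsal, 11.6% ventral) and 0 higher (22.7% and 11.8%), with medians of -0.14 (all genes 0.05) and -0.36 (all genes -0.04). Of the receptor subunits outside the list 10 could be tested. In the ventral striatum 4 were higher (23.4% of genes) and 0 lower (20.3%), and in the amygdala likewise 4 higher (21.4%) and 0 lower (9.51%). The dorsal hippocampus had 4 higher (22.7% of genes) and 4 lower (13.1%). The dorsal striatum had 2 higher (26.5% of genes) and 3 lower (20%), the cortex 2 higher (17.7%) and 3 lower (20.8%), and the prefrontal cortex 0 higher (11.8%) and 2 lower (12%). The ventral hippocampus had 0 lower (11.6% of genes) and 1 higher (11.8%), Gabra6 (5.17), whose counts rest on the library of male WT mouse 3 (18 counts), the other 11 holding 0 or 1 count. Of 14 genes for receptor anchoring, assembly and trafficking, 8 were lower (20.8% of genes) and 2 higher (17.7%) in the cortex (median -0.21, all genes -0.07), and 7 were higher (26.5%) and 3 lower (20%) in the dorsal striatum (median 0.16, all genes 0.04). Between KO and WT, 1 gene of these 3 lists passed in any region: Slc6a13, a GABA transporter of the meninges and vessels, in the prefrontal cortex (-2.97, edgeR adjusted p = 0.046). There 0.0925% of all genes passed. Its counts were 2, 4, 1 and 6 in the KO libraries, near the floor of 3 counts, and 38, 6, 50 and 19 in the WT libraries. The WT library with 6 counts was that of mouse 23, which carried the sex-linked transcripts of a male. Markers of other cells also differed between these libraries, and their part was not tested.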

How the data were processed

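RNA was extracted from dissected regions of 12 mice, and 300 ng of it entered each poly(A) library, per the labels' protocols. The deposited values are raw counts of reads per gene. The submitters' processing notes name STAR 2.5.2a, SAMtools 1.1, HTSeq 0.6.1, DESeq2, R 4.0.2 and the build GRCm38 (mm10), and the strand setting and gene annotation are not given in the sources used here. Groups were taken from the labels. The subunits and the other lists were chosen with earlier results of these data known.

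Counts were tested in R 4.3.3 with edgeR 4.0.16 (TMM, filterByExpr with a minimum count of 10 and a minimum total of 15, quasi-likelihood test, Benjamini-Hochberg over all genes tested, threshold 0.05). Each region was fitted with sex and genotype, and regions were compared in 1 fit of 78 libraries. The average over regions used limma 3.58.1 (voom, mouse as random block). The scripts were tested on simulated data. CPM used column totals, and levels between genes were divided by GENCODE M21 exonic length. A floor of 3 counts equals 0.207 to 0.673 CPM in the deeper and 2.44 to 4.76 CPM in the shallower libraries.

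Alternatives were DESeq2 1.42.0 (size factors or Wald test), no low-count filter, each sex alone, WT alone, leaving out each mouse, a mouse block and fits within a set of library numbers. Leaving out the 8 libraries whose striatal markers went against the label was added after seeing the data. Mouse numbers in the labels link libraries of the same mouse: deviations from group means correlated with a mean r of 0.013 over 210 same-mouse pairs (-0.28 to 0.50) and -0.0012 over 2321 pairs of different mice.

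All 7 subunits were followed in each comparison. The rule for values given in full was the subunit with the smallest p between KO and WT in each region, the highest and lowest region of each subunit, and for likeness the 3 genes with the highest r.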

Additional observations from a re-analysis of the deposited data

Results flagged for a closer look

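In groups of 4 to 10 libraries the highest and lowest values were compared with the rest by Dixon's gap, in 98 groups of subunit, region and genotype, and chance flags about 1 in 20 groups. A gap past the 95% limit was found in 5. Gabra2 stood at 157 CPM in the amygdala of male KO mouse 10, against 77.4 to 107 CPM in the other 5 KO libraries. Gabrb1 stood at 93.3 CPM in the dorsal striatum of female WT mouse 11, against 138 to 160 CPM, and at 264 CPM in the ventral striatum of male WT mouse 13, against 151 to 190 CPM. Gabrb2 stood at 82.2 CPM in the prefrontal cortex of female KO mouse 6, against 143 to 154 CPM in the other 3. Gabrd stood at 76.8 CPM in the ventral hippocampus of female KO mouse 6, against 20.7 to 29.5 CPM.

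Among 49 pairs of subunit and region, KO minus WT pointed in opposite directions in females and males in 2, without overlap within either sex. The groups compared held 3 libraries at most, and the share of all genes with this pattern is not given here. For Gabrd in the ventral hippocampus the difference between the sexes was 2.27 ± 0.54 on the log2 scale (edgeR, unadjusted p = 0.00068, adjusted p = 0.72). For Gabra3 in the prefrontal cortex it was -0.83 ± 0.32 (edgeR, unadjusted p = 0.022, adjusted p = 1.0), with 1 male KO library and with a female WT library whose sex-linked transcripts were those of a male. Neither passed after adjustment.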

How the results depend on the processing

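Of 1643 values recomputed under the alternatives, 1596 were taken as kept. Fitted differences were kept if direction and side of the threshold held, and levels and shares if they moved by less than the spread. Counts of subunits called were kept if equal or close, with 4 against 6 in the dorsal striatum still taken as close. Many of these counts were 0 in both settings, so the total does not measure how steady the regional results were. With WT libraries alone, as few as 4 a region, the subunits called numbered 1 in the amygdala, 3 in the dorsal striatum, 1 in the ventral hippocampus, 0 in the prefrontal cortex and 0 in each of the 3 pairs of related regions. Without the libraries whose striatal markers went against the label, 2 were called in the prefrontal cortex and 2 between ventral and dorsal striatum, and within the set of shallower libraries 3 in the prefrontal cortex. Leaving out 1 mouse gave 2 to 4 in the ventral hippocampus (2 without mouse 4) and 0 to 2 between ventral and dorsal striatum (0 without mouse 4 or 13, 2 without mouse 10 or 12). Without a low-count filter, 1 subunit passed between sexes in the ventral hippocampus (Gabra3, 0.63, edgeR adjusted p = 0.0060) and 1 in the interaction there (Gabrd, 2.26, 1.2e-05); the cause was not tested. The sex difference of Gabra3 changed sign when 1 mouse was left out: -0.33 to 0.53 in the dorsal striatum, -0.082 (without mouse 23) to 0.44 in the dorsal hippocampus and -0.10 to 0.47 in the prefrontal cortex. Per kilobase of exon the share of Gabrb1 was 25.2% in the cortex, 41.2% in the prefrontal cortex, 44.7% in the amygdala, 34.3% (ventral) and 32.5% (dorsal) in the striatal regions, and 45.5% (ventral) and 43.8% (dorsal) in the hippocampal regions, that of Gabra3 in the cortex 47.6%, and that of Gabra5 60.3% and 49.98% in the dorsal and ventral hippocampus. With the mouse as a replicate block, 69 of 70 region tests kept direction and side, with 33 calls against 32: Gabra4 in the dorsal hippocampus passed (0.25, edgeR adjusted p = 0.045, against 0.056 without the block).

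Counts over all genes moved too. They are not on the same scale as counts out of 7 subunits, so which moved more is not judged here. Between KO and WT in the prefrontal cortex 11 genes passed, against 367 without a low-count filter, 46 with DESeq2's Wald test, 51 with males alone, 50 with females alone, 76 without the library of mouse 23 whose sex-linked transcripts went against its label, and 7 to 102 when 1 mouse was left out. Without a filter, 101 passed in the ventral hippocampus and 10 in the cortex, where 1 had. Between sexes in the amygdala 6 passed, against 545 with DESeq2's Wald test, 71 without a filter, 86 without the marker-poor or marker-rich libraries and 5 to 218 with 1 mouse left out. In the ventral hippocampus the interaction gave 0 genes, against 117 without a filter and 15 without mouse 6. For the average over regions 6 passed, against 1 on sums per mouse over 3 regions. With WT libraries alone, region contrasts called 1735 to 5143 genes in place of 4576 to 9095. Shallow libraries limit the ventral hippocampus, cortex and prefrontal cortex, where the prefrontal comparison rests on 4 libraries a genotype.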
